A study of Mus musculus with 12 samples.

Results

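Cells sorted as c-kit-positive were compared with cells sorted as c-kit-negative in the 3 mouse leukaemias whose labels name Dnmt3b, numbered 81, 83 and 85. Each of these leukaemias gave 1 array of either fraction, so the comparison used 6 of the 12 arrays of the series, or 3 of its 6 pairs. The pairs were taken from the leukaemia numbers in the labels, and no measured value entered the choice. All leukaemias of the series were driven by the MLL-AF9 fusion gene, which is found in human acute leukaemias, mostly myeloid ones. The field for Dnmt3b reads Dnmt3b-knockin for leukaemias 81, 83 and 85, which the titles call overexpressing, and WT for leukaemias 73, 75 and 79, which served here to estimate the spread, in the filter on low values and the choice of probe sets, and for a test of the difference between both groups. The promoter and cell type in which Dnmt3b is driven, the strain and age of the mice, and whether each number is a separate mouse are not given in the sources used here. Titles and descriptions place the cells in bone marrow and the source field in leukaemic spleen.

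c-Kit is the receptor tyrosine kinase for stem cell factor and sits on the surface of blood progenitors and of many leukaemic blasts, and its loss accompanies myeloid maturation. In MLL-AF9 leukaemia of the mouse, cells able to propagate the disease are found mainly among c-kit-positive cells. Myeloid cells make their granule proteins in waves, with myeloperoxidase and the serine proteases of primary granules at the promyelocyte stage, then lactoferrin and collagenase in secondary granules, then gelatinase. Monocytes instead build up lysosomes, antigen processing and the receptor for colony-stimulating factor 1. Dnmt3b is a de novo DNA methyltransferase, an enzyme that places methyl groups on unmethylated cytosines.

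The sorted marker followed the labels. On the log2 scale of the deposited values, Kit read 8.15, 7.88 and 7.98 in the c-kit-positive arrays of leukaemias 81, 83 and 85, and 6.47, 6.87 and 6.75 in their c-kit-negative arrays. The groups did not overlap, and the Kit difference over the 3 pairs was 2.48-fold (log2 1.31, SE 0.13, adjusted p = 0.000183 with limma). Since the cells were sorted on this protein, the value checks the sort. Dnmt3b itself read 6.49, 6.38 and 6.33 in c-kit-positive and 6.16, 6.34 and 6.64 in c-kit-negative cells, against 6.10 to 6.66 on the 6 wild-type arrays, so the values in the Dnmt3b-labelled leukaemias lay within those of the wild type. Its c-kit difference was 0.02 (95% interval -0.25 to 0.29, adjusted p = 0.953). Whether the probe set can read the introduced Dnmt3b is not known from the sources used here. The array medians lay between 5.56 and 5.71. Leukaemia 81 stood apart in Xist, the X-inactivation RNA, at 6.30 and 6.27 in its fractions against 9.83 to 11.66 on the other 10 arrays. It also correlated less with leukaemias 83 and 85 over all probe sets. Pearson r was 0.9575 and 0.9334 in c-kit-negative and 0.9645 and 0.9554 in c-kit-positive cells. Between 83 and 85 it was 0.9729 and 0.9828. The numbers of genes called were also taken without leukaemia 81.

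Over the 19152 genes tested, 60 of 63 mitosis genes and 9 of 17 primary granule genes were higher in c-kit-positive cells, and 19 of 41 late neutrophil and 24 of 43 monocyte genes were lower. With limma and the leukaemia number as a block, 1139 genes were higher (5.95% of the genes tested) and 527 were lower (2.75%) at an adjusted p under 0.05, which is 1666 genes or 8.70%. The higher genes were more numerous and smaller in size, with a median of 0.53 on the log2 scale (1.44-fold), against -0.61 (1.52-fold) for the lower ones. At least 2-fold differences were reached by 99 higher and 111 lower genes, and at least 4-fold differences by Mpo alone among the higher and by 15 genes among the lower. Of the 99 genes at least 2-fold higher, 35 belonged to the lists of mitosis, S phase or histone genes. These lists held 63, 61 and 17 of the 19152 genes tested. Of the 111 at least 2-fold lower, 28 belonged to the late neutrophil or monocyte lists, which held 41 and 43 genes tested. List counts given below are to be set beside the shares of 5.95% higher and 2.75% lower over all genes tested. The sign was the same in all 3 pairs for 1664 of the 1666 genes, against 7652 of all 19152 genes tested. A paired test favours genes with 1 sign, so this follows largely from the call. The c-kit-positive and c-kit-negative values did not overlap for 683 of the higher and 387 of the lower genes. Over all genes tested, separate groups were not counted, so these counts have no share to be set beside. Like the sign, they follow in part from the call.

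In bulk RNA of sorted cells, a smaller share of cells that express a gene and less RNA per cell cannot be told apart. The p-values set a difference against the spread among the 3 pairs within each genotype, pooled over both genotypes. Without the pairing (no replicate block) 360 genes passed, 216 higher (1.13%) and 144 lower (0.752%), and all 360 were among the 1666. Without leukaemia 81, 1408 genes passed, 1008 higher and 400 lower. Without leukaemia 83, 745 genes passed, 504 higher and 241 lower, and without leukaemia 85, 564 higher and 449 lower.

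**Figure D1:**
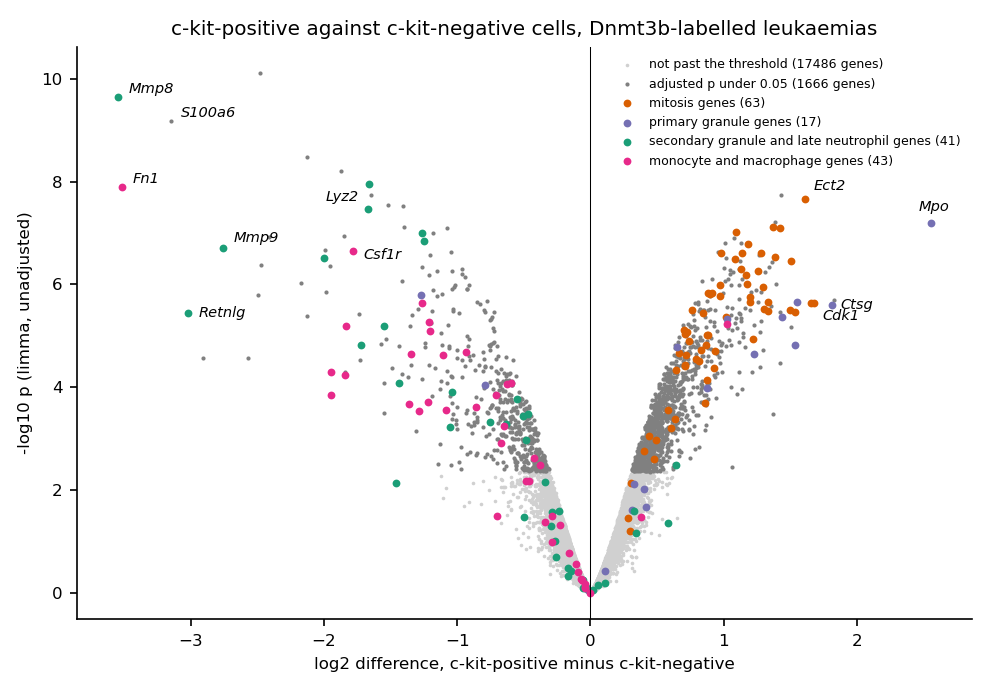
Difference between c-kit-positive and c-kit-negative cells for the 19152 genes tested in leukaemias 81, 83 and 85, with the log2 difference on the horizontal axis and -log10 of the unadjusted limma p on the vertical axis. Each point is a gene, dark grey marks the 1666 genes at an adjusted p under 0.05, and colours mark 4 gene lists. Mitosis genes lie to the right of 0, and late neutrophil and monocyte genes lie mostly to the left.

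Among the 14 genes named for the largest increases, 8 take part in cell division or chromatin and 5 are genes of granules or of granulocyte progenitors (Mpo, Ctsg, Elane, Nkg7 and Ms4a3). Cdk1, the kinase that drives entry into mitosis, read 9.16, 9.09 and 9.03 in c-kit-positive cells and 8.09, 7.20 and 6.94 in c-kit-negative cells. The positive values lay close together, the negative ones over a wider range with leukaemia 81 the highest, and Cdk1 was 3.21-fold higher (log2 1.68, SE 0.19, adjusted p = 0.000393). Top2a, the topoisomerase that untangles chromosomes, was 3.16-fold higher. Ect2, an exchange factor that starts the cleavage furrow, was 3.06-fold higher and Kif11, the motor that separates spindle poles, 2.90-fold. Mki67, the proliferation antigen Ki-67, read 10.33, 10.34 and 10.04 against 9.17, 8.80 and 8.23. Its groups were also separate, at 2.84-fold higher (log2 1.51, SE 0.14, adjusted p = 0.000151). Ndc80, which ties kinetochores to microtubules, was 2.83-fold higher, Depdc1a 2.70-fold and the histone gene H2bc12 2.84-fold. Far2, a fatty acyl-CoA reductase gene, was 3.55-fold higher, and its c-kit-negative values of 6.85, 6.52 and 6.93 lay below all c-kit-positive values of 9.45, 8.32 and 8.01. The 8 cell division and chromatin genes, Far2 and Nkg7 passed under every setting tried, whereas Mpo, Ctsg, Elane and Ms4a3 did not without the pairing.

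The promoters of the 4 mitosis genes with the largest differences are printed because genes of this group are known to be held off outside G2 and M phase through a cell cycle homology region (CHR, letters TTTGAA) that often lies near CCAAT boxes. The windows are the 250 bases before the RefSeq start of each gene on GRCm38.p6, read 5′ to 3′ on the strand of the gene, and capitals mark each TTTGAA and CCAAT on either strand. Cdk1 lies on the minus strand (chr10:69352913-69353162), Top2a on the minus strand (chr11:99024190-99024439), Ect2 on the minus strand (chr3:27153879-27154128) and Kif11 on the plus strand (chr19:37376132-37376381).
Cdk1: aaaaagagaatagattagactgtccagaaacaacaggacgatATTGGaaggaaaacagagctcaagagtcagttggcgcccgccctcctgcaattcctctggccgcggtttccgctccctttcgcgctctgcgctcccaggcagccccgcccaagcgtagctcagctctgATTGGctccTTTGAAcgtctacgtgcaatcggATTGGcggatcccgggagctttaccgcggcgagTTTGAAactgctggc
Top2a: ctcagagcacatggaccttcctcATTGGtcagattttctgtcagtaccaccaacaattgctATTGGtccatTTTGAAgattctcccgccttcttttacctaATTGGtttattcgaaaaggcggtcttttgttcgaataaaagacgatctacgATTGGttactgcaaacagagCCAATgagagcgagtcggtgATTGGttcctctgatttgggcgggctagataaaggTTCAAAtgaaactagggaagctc
Ect2: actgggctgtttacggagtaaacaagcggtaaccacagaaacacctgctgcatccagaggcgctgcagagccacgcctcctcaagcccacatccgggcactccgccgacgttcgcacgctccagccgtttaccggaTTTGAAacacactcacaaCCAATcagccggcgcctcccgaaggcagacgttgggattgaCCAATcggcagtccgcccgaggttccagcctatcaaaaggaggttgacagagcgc
Kif11: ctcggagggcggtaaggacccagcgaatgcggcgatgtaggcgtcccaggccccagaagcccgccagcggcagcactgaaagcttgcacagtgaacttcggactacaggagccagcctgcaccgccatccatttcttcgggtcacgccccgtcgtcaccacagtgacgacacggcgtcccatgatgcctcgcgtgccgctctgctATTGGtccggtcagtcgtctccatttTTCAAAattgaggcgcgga
Cdk1 holds 2 copies of the CHR letters and 3 of the CCAAT letters, Top2a 2 and 6, Ect2 1 and 2, and Kif11 1 and 1. The copy nearest the start lies 15 bases before it in Cdk1, 23 in Top2a, 19 in Kif11 and 114 in Ect2. A promoter was listed for 50 of the 63 mitosis genes tested. The CHR letters were present in 14 of them (28%), the CCAAT letters in 33 (66%) and both in 12 (24%). Over all 14902 genes tested that had a listed promoter, the shares were 13.1%, 35.2% and 4.78%. Mitosis genes were not the list with the largest CHR share, since these letters were in 6 of 15 primary granule promoters (40%). They were in 5 of 52 S phase promoters (9.62%), and the CCAAT letters in 30 of those (57.7%). The E2F letters TTTCCCGC or TTTGGCGC, on either strand, were found in 9 of 52 S phase promoters (17.3%), in 2 of 50 mitosis promoters (4%) and in 1.99% of all. These matches describe the letters in the window and are not measured binding sites.

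Mitosis genes were higher almost throughout. Of 63 tested, 60 were higher and 0 lower, with a median of 0.91 on the log2 scale, against 5.95% higher and a median of -0.02 over all genes. All 63 differences were positive, from 0.28 to 1.68. The list medians were 0.83 in leukaemia 81, 1.03 in 83 and 0.94 in 85. Knl1, the kinetochore scaffold, was 2.58-fold higher, the spindle motors Kif15 and Kif4 were 2.68-fold and 2.14-fold higher, and Kif23, a motor of the central spindle, was 2.28-fold higher. The kinases Aurkb and Plk1, which correct kinetochore attachments and drive mitotic progression, had 1.34 and 1.22, and Foxm1, a transcription factor of G2 and M phase genes, had 0.82. Aurkb, Plk1 and Foxm1 were not chosen by the rule for named genes. Lmnb1 (0.30, adjusted p = 0.0692), Sgo2a (0.30, adjusted p = 0.268) and Cdc25b (0.28, adjusted p = 0.191) were the 3 members that did not pass, although Cdc25b did without leukaemia 81 and Lmnb1 with arrays centred on their median. Without the pairing 51 were higher, and without leukaemia 81, 83 or 85 the count was 56, 53 or 56.

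Replication genes rose by less. Of 61 S phase genes, 46 were higher and 0 lower, with a median of 0.52 and pair medians of 0.48, 0.52 and 0.55. Rrm1, the large subunit of the enzyme that makes deoxynucleotides, read 8.89, 8.82 and 8.61 in c-kit-positive cells and 8.10, 7.47 and 6.89 in c-kit-negative cells. It was 2.44-fold higher, with separate groups. The helicase loading genes Mcm2 and Mcm5 were 1.73-fold and 1.79-fold higher, Cdc45, which completes the replicative helicase, 1.71-fold, and Blm, the Bloom helicase, 1.64-fold. The groups overlapped for Mcm2, where c-kit-negative leukaemia 81 (7.98) and 83 (7.82) lay above c-kit-positive leukaemia 85 (7.80). Of the 54 replication-dependent histone genes, 22 were measured and 17 tested, of which 11 were higher and H4c14 (-0.36) was lower, with a median of 0.86. H2ac10 was 2.56-fold higher, H2bc18 2.06-fold, the linker histone gene H1f1 1.95-fold and H4c12 1.77-fold. Histone genes are near-identical copies, so a probe set can read several of them. Without the pairing 11 S phase genes were higher, and without leukaemia 83 or 85 the count was 22 or 25. Mcm2, Mcm5 and Cdc45 lost their calls without the pairing, while H4c14 lost its call under most settings, the pairing, both scalings and each left-out leukaemia other than 79 among them.

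Regulators of the G1 phase went both ways. Of 23 CDK inhibitor and G1 regulator genes, 6 were higher and 3 were lower. The antiproliferative genes Btg1 and Btg2 were lower, at 1.95-fold and 2.02-fold, and so was Cdkn1b, the inhibitor p27, at 1.60-fold. Btg1 read 7.43, 7.73 and 7.46 in c-kit-positive cells against 8.49, 8.78 and 8.24 in c-kit-negative cells, with no overlap. Cdk6, a G1 kinase that is also a known target of MLL fusions, was 1.64-fold higher with values of 10.52, 10.29 and 10.56 against 9.98, 9.52 and 9.71. Rbl1, which encodes the pocket protein p107, was 1.58-fold higher. Cdkn1b and Rbl1 lost their calls without the pairing, while Btg1, Btg2 and Cdk6 kept theirs under every setting tried. The list had a median near 0 whose sign turned with the scaling of the arrays (0.01 as deposited, -0.07 with quantile normalization repeated).

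**Figure D2:**
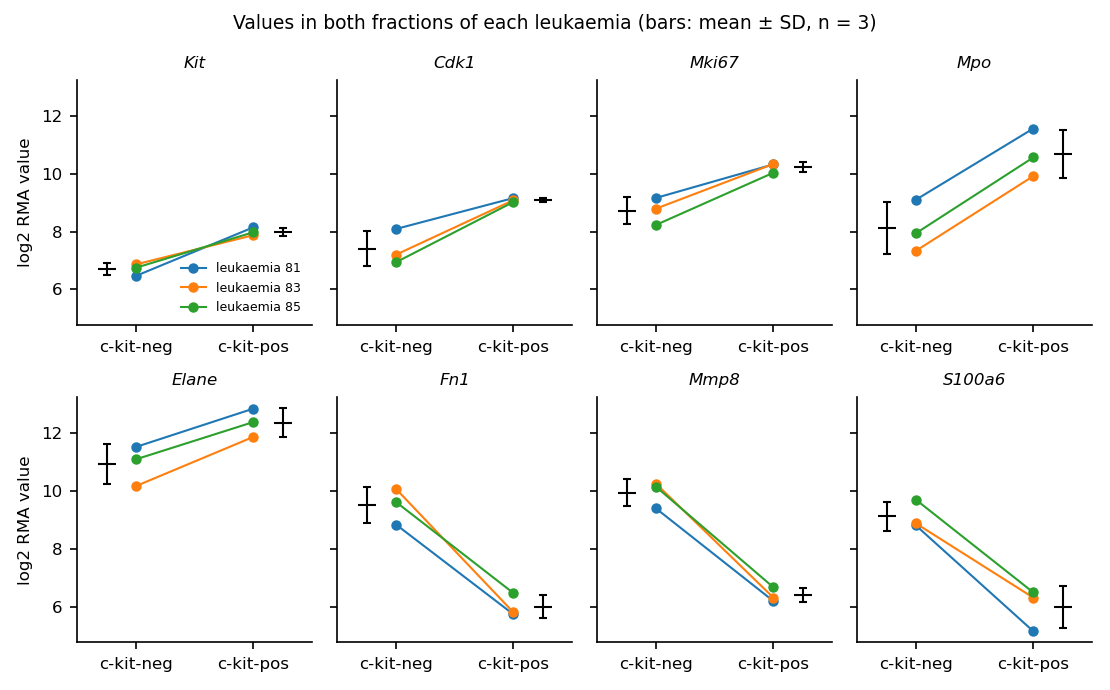
Log2 RMA values of 8 genes in the c-kit-negative and c-kit-positive arrays of leukaemias 81 (blue), 83 (orange) and 85 (green), joined by leukaemia, with the mean ± SD of each group (n = 3) beside them. All 3 lines rise for Kit, Cdk1, Mki67, Mpo and Elane and fall for Fn1, Mmp8 and S100a6.

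Primary granule genes gave the largest single increase and, with mitosis genes, most of the top of the ranking. Mpo, which encodes myeloperoxidase, read 11.57, 9.92 and 10.57 in c-kit-positive cells and 9.11, 7.34 and 7.95 in c-kit-negative cells. Leukaemia 81 was the highest in both fractions and 83 the lowest in both, and within each pair the positive array was higher, at 5.90-fold over the 3 pairs (log2 2.56, SE 0.21, adjusted p = 8.19e-05). Ctsg, the cathepsin G gene, was 3.52-fold higher, and Elane, neutrophil elastase, 2.71-fold, from 11.53, 10.18 and 11.10 to 12.86, 11.88 and 12.39. Nkg7, whose protein sits in granule membranes, was 2.94-fold higher and Ms4a3, a marker of granulocyte and monocyte progenitors, 2.91-fold. Of 17 genes of this list tested, 9 were higher and 2 lower, with a median of 0.65. The 2 lower ones were Ctsc, the protease that activates the granule serine proteases, at -1.27, and Hdc, histidine decarboxylase, at -0.79. For Ctsc the groups overlapped (7.61, 7.10 and 6.26 against 8.87, 8.73 and 7.19), although each pair fell. Serpinb1a, an inhibitor of these proteases, was 1.84-fold higher. Mpo, Ctsg, Elane, Ms4a3, Ctsc, Hdc and Serpinb1a were among the genes that lost their calls without the pairing. In that fit 3 genes of the primary granule list were higher and 0 lower. Without leukaemia 81, 83 or 85, 10, 9 or 9 genes were higher and 2 lower.

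Of 25 progenitor genes tested, 3 were higher (Kit, Myb and Prom1) and 0 lower, against 5.95% and 2.75% of all genes tested, with a median within 0.01 of 0. Since the cells were sorted on the Kit protein, its call checks the sort, and only Myb and Prom1 remain beside that share. Myb, a transcription factor of immature blood cells, read 10.71, 10.33 and 10.13 against 9.71, 9.26 and 8.84, and was 2.17-fold higher with separate groups (log2 1.12, SE 0.11, adjusted p = 0.00018). A second probe set of Myb gave 0.47. Prom1, the CD133 gene, was 1.56-fold higher and lost its call without the pairing. Erg had 0.35 (adjusted p = 0.0588) and Thy1 -0.27 (adjusted p = 0.121), of which Erg passed with arrays centred on their median. Cd34 and Flt3, named here after their values were seen, had -0.07 (adjusted p = 0.922) and -0.30 (adjusted p = 0.716).

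Of the 15 MLL-AF9 target genes, 3 were higher and 0 lower, with a median of 0.19. Besides Cdk6 these were the homeobox genes Hoxa9, at 1.38-fold (8.14, 7.74 and 7.73 against 7.89, 7.20 and 7.12), and Hoxa5, at 1.36-fold. The groups overlapped for both, and both lost their calls without the pairing, with a random block in its place, and without leukaemia 83 or 85. Hoxa6 (0.42, adjusted p = 0.0506) and Pbx3 (0.32, adjusted p = 0.265) did not pass, although Hoxa6 did with arrays centred on their median. Pbx3 differed more between leukaemias than between fractions, at 6.50, 9.12 and 7.69 in c-kit-positive and 6.63, 8.65 and 7.06 in c-kit-negative cells.

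Among 25 myeloid transcription factors, 8 were lower and 2 higher, with a median of -0.29. Klf4, a factor of monocyte maturation, was 2.0-fold lower, Bcl6, a repressor found in mature neutrophils, 1.65-fold, the AP-1 gene Fos 2.01-fold and Trib1, which targets C/EBP alpha for degradation, 1.55-fold. The exceptions were Gfi1, a repressor that directs cells to the granulocyte fate, at 2.43-fold higher, and Cebpe, a factor of the promyelocyte to myelocyte step, at 1.56-fold higher. Gfi1 read 8.84, 8.35 and 8.28 against 7.22, 7.10 and 7.32, with no overlap. Without the pairing 2 genes were lower and 1 higher. Cebpe also lost its call without leukaemia 81 or 85, and Fos with a random block.

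Late neutrophil genes held the largest decreases. Mmp8, neutrophil collagenase, read 6.19, 6.31 and 6.67 in c-kit-positive cells and 9.40, 10.26 and 10.15 in c-kit-negative cells. The groups lay far apart, and Mmp8 was 11.7-fold lower in c-kit-positive cells (log2 -3.55, SE 0.17, adjusted p = 2.19e-06). Retnlg, a resistin-like gene of neutrophils, was 8.10-fold lower, from 6.88, 8.86 and 9.56 to 5.18, 5.27 and 5.79, with the smallest fall in leukaemia 81. Mmp9, gelatinase B, was 6.75-fold lower and Ly6g, the surface antigen of mouse neutrophils, 4.0-fold. Lyz2, lysozyme, read 9.31, 9.02 and 8.77 against 10.98, 10.61 and 10.53 and was 3.19-fold lower. Cxcr2, a chemokine receptor that guides neutrophils, was 3.17-fold lower, Fpr2, a formyl peptide receptor, 2.41-fold and Anxa1, annexin A1, 2.37-fold. Of 41 genes tested, 19 were lower and 1 higher, with a median of -0.47 and pair medians of -0.53, -0.49 and -0.34.

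The same list held abundant genes without such a difference. S100a8 read 11.88, 11.96 and 12.07 in c-kit-positive and 11.99, 12.13 and 12.31 in c-kit-negative cells (-0.17, adjusted p = 0.736), and Ngp had -0.05 (adjusted p = 0.909). S100a9 had 0.11 (adjusted p = 0.841) and Camp, the cathelicidin gene, 0.58 (adjusted p = 0.219). These 4 genes were picked after their values were seen, and Camp passed as higher without leukaemia 73 and with the 6 arrays fitted alone. Mgam, maltase-glucoamylase, was the 1 gene higher, at 1.56-fold, and lost that call without any 1 of the leukaemias other than 79, without the pairing, with a random block and with quantile normalization repeated. Summed over the 41 genes, the linear signal was 31084 to 36656 in c-kit-positive and 41058 to 46322 in c-kit-negative cells. Without the pairing 9 genes were lower, and without leukaemia 81, 83 or 85, 16, 14 or 14.

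The monocyte and macrophage list also held large decreases. Fn1, the fibronectin gene, read 5.74, 5.80 and 6.47 in c-kit-positive and 8.84, 10.08 and 9.63 in c-kit-negative cells. It was 11.4-fold lower in c-kit-positive cells (log2 -3.51, SE 0.25, adjusted p = 3.56e-05), with no overlap. Csf1r, the receptor for colony-stimulating factor 1, was 3.45-fold lower, from 8.73, 8.08 and 7.44 to 6.70, 6.19 and 6.01. Lgals3, galectin 3, was 2.41-fold lower and the chemokine gene Ccl6 2.31-fold. Tgfbi, a matrix protein of macrophages that was not on this list, was 4.51-fold lower. Of 43 genes tested, 24 were lower and 1 higher, with a median of -0.63. The exception was Vcam1, an adhesion molecule, at 2.04-fold higher (7.48, 7.74 and 7.65 against 6.22, 6.90 and 6.68), which lost its call without the pairing. The complement gene C1qa and the scavenger receptor gene Cd163, markers of tissue macrophages picked after their values were seen, had -0.07 and -0.06. The pair medians were -0.73 in leukaemia 81, -0.69 in 83 and -0.47 in 85, and the summed signal of the list was 6909 to 7878 in c-kit-positive and 8576 to 15946 in c-kit-negative cells. Without the pairing 10 genes were lower and none higher, and without leukaemia 83 14 were lower.

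Several receptor and inhibitor genes were among the largest decreases. S100a6, a calcium-binding protein gene, read 5.15, 6.31 and 6.49 against 8.81, 8.88 and 9.70 and was 8.88-fold lower with separate groups (log2 -3.15, SE 0.17, adjusted p = 4.23e-06). Lilrb4a, an inhibitory leukocyte receptor, was 5.57-fold lower with a log2 SE of 0.11, and its c-kit-positive values of 7.82, 8.63 and 7.55 lay below every c-kit-negative one. Il13ra1, a receptor chain for interleukins 4 and 13, was 5.55-fold lower, Xdh, xanthine dehydrogenase, 5.32-fold, and the small secreted protein gene Wfdc17 5.94-fold. Of 12 S100 genes, 2 were lower (S100a6 and S100a10, at 2.48-fold) and S100a1 was 1.59-fold higher. Of 16 stefin, cystatin and WAP inhibitor genes, 5 were lower and 1 higher, with a median of -0.24. The neutrophil stefin genes Stfa2 and Stfa2l1 were 2.71-fold and 2.07-fold lower, and since stefins are near-identical copies their probe sets may read each other. S100a10, S100a1, Stfa2 and Stfa2l1 lost their calls without the pairing, as did S100a10 without leukaemia 81 and Stfa2l1 without any of 81, 83 or 85.

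**Figure D3:**
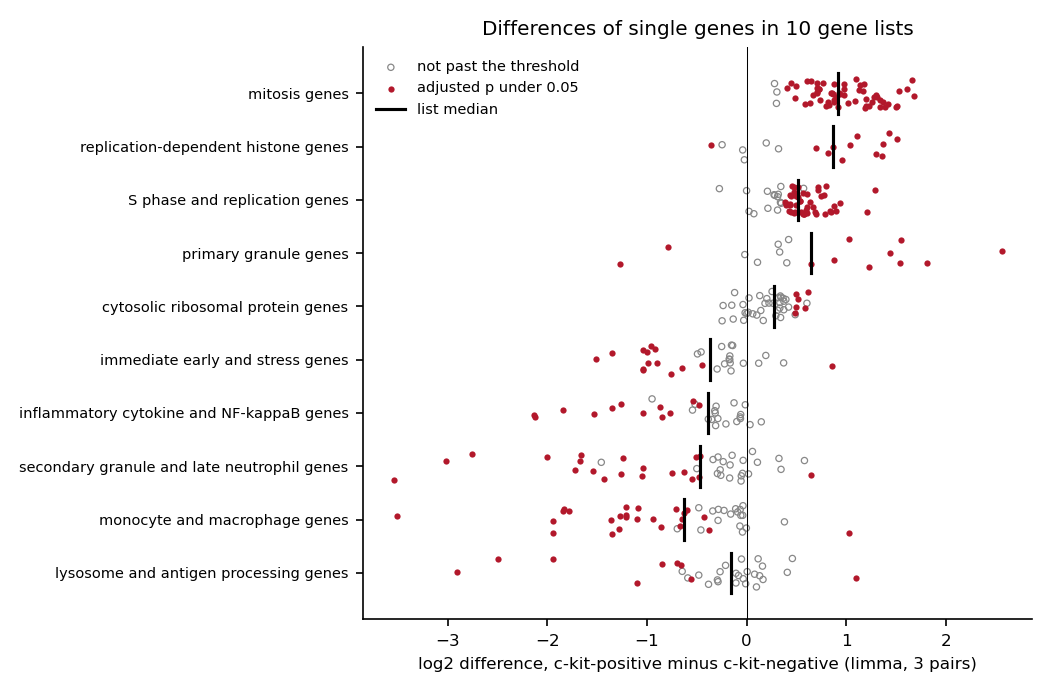
Log2 difference between c-kit-positive and c-kit-negative cells (horizontal axis, limma over 3 pairs) for each gene of 10 lists (rows), with filled red points at an adjusted p under 0.05, open points for genes that did not pass and a black bar at the list median. The mitosis genes lie between 0.28 and 1.68, whereas the monocyte list spreads from -3.51 to 1.03.

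Lysosome genes differed mainly through a few members. Pld4, an endolysosomal nuclease, was 7.50-fold lower, from 10.57, 9.35 and 8.18 to 7.03, 6.46 and 5.88, and Ifi30, the lysosomal thiol reductase of antigen processing, was 5.64-fold lower, from 9.94, 8.81 and 7.74 to 6.59, 6.50 and 5.92. For both genes c-kit-negative cells of leukaemia 81 were highest and those of leukaemia 85 lowest. Ctss, the cathepsin that trims the invariant chain, was 3.85-fold lower and Cd68, a lysosomal glycoprotein of macrophages, 2.15-fold. Cd63, a tetraspanin of lysosomes and primary granules, went the other way at 2.14-fold higher. Of 32 genes, 8 were lower and 1 higher, with a median of -0.16 that was -0.40 in leukaemia 81 and 0.03 in leukaemia 85. Without the pairing 3 were lower and none higher, with Cd68 and Cd63 among those lost.

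Antigen presentation genes showed the same order of leukaemias. Of 12 MHC class II genes 2 were lower, the costimulatory gene Cd80 at 1.90-fold and H2-Eb1 at 1.31-fold, with a median of -0.33. H2-Ab1 fell from 8.46 to 6.17 in leukaemia 81, from 6.08 to 5.56 in 83, and stood at 5.59 and 5.66 in 85, so that its difference of -0.91 did not pass (adjusted p = 0.123), except without leukaemia 85. Of 14 MHC class I genes only Erap1, an aminopeptidase that trims peptides, passed, at 1.38-fold higher, while H2-K1 (-0.41), Tap1 (-0.34) and B2m (-0.33) did not, although all 3 did with quantile normalization repeated. H2-Eb1 lost its call under most settings, and Erap1 without the pairing and without leukaemia 81 or 83.

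Chemokine, cytokine and immediate early genes were among those lower in c-kit-positive cells. Cxcl2, a chemokine for neutrophils, read 6.61, 8.64 and 6.58 against 8.37, 11.12 and 8.73. Leukaemia 83 was the highest in both fractions, so the groups overlapped, but each pair fell and the difference was 4.38-fold (log2 -2.13, SE 0.13, adjusted p = 1.62e-05). Ccl3, another chemokine gene, was 4.37-fold lower, with leukaemia 83 again the highest (9.35 and 11.50). Il1b, interleukin 1 beta, was 2.89-fold lower, Clec4e, a receptor for fungal and mycobacterial glycolipids, 3.59-fold and Nfkbiz, a nuclear cofactor of NF-kappaB, 2.55-fold. Of 31 genes 12 were lower and 0 higher, with a median of -0.39. Of 30 immediate early and stress genes 13 were lower and 1 higher, with a median of -0.37. Dusp1, a phosphatase that turns off MAP kinases, was 2.86-fold lower (8.16, 8.81 and 7.98 against 9.51, 10.29 and 9.69), Zfp36, which destabilises cytokine mRNA, 2.05-fold, and the transcription factor genes Junb and Klf6 1.95-fold and 1.98-fold. Hsp90aa1, a heat shock chaperone, was 1.81-fold higher. Cxcl2, Ccl3, Nfkbiz and all 5 named immediate early genes were among those that lost their calls without the pairing. In that fit 3 genes of each list were lower. Without leukaemia 81 or 83, 7 or 6 inflammatory and 8 or 8 immediate early genes were lower.

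Receptors for chemoattractants were lower in 8 of 19 genes and higher in none, with a median of -0.25. Besides Cxcr2 and Fpr2, the complement receptor gene C5ar1 was 2.04-fold lower, Ccr1, a receptor for inflammatory chemokines, 2.17-fold and Ptafr, the receptor for platelet-activating factor, 1.88-fold, and all 5 kept their calls under every setting tried, while 5 of the list were lower without leukaemia 83. Of 30 adhesion and matrix genes 9 were lower and 2 higher, with a median of -0.26. Thbs1, thrombospondin 1, read 6.02, 6.76 and 6.52 against 8.59, 9.28 and 7.26 and was 3.85-fold lower. Itga1, an integrin chain for collagen, was 2.10-fold lower and Itgb2, the beta chain of leukocyte integrins, 1.38-fold. Itga6, a laminin receptor chain, was 1.43-fold higher and Cd47, a signal against phagocytosis, 1.31-fold. These 5 were among the genes that lost their calls without the pairing. In that fit Fn1 was the 1 adhesion gene that passed, and without leukaemia 81 or 83, 4 or 2 were lower.

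Of 17 C-type lectin genes 4 were lower and 1 higher, against 2.75% lower and 5.95% higher over all genes tested. The share that was higher was thus near that over all genes. Clec4a3 and Clec4a1, receptors of myeloid cells, were 3.67-fold and 2.45-fold lower with separate groups. Clec12a, an inhibitory receptor found on progenitors and leukaemic blasts, was 1.57-fold higher (11.03, 10.75 and 11.03 against 10.46, 10.08 and 10.32). Of 28 type I interferon response genes 8 were lower and 0 higher, with a median of -0.21. Ifitm3, an antiviral membrane protein, was 2.98-fold lower, from 9.41, 8.54 and 8.91 to 7.30, 7.48 and 7.36. Slfn2, a Schlafen family gene, was 1.90-fold lower, Slfn1 1.76-fold, Zbp1, a sensor of unusual nucleic acid, 1.65-fold and Oasl2 1.62-fold. Zbp1 and Slfn1 were among the genes that lost their calls without leukaemia 83, where 4 interferon genes were lower. Oasl2 was among those that lost theirs without the pairing, where 5 were lower.

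Among growth and energy genes a minority passed, and how many depended on which leukaemias were included, against 5.95% higher over all genes tested. Of 49 MYC target and ribosome biogenesis genes 8 were higher and 0 lower, with a median of 0.19. Ncl, nucleolin, was 1.88-fold higher (8.49, 8.77 and 8.09 against 8.03, 7.80 and 6.81), and Mybbp1a, Nhp2, Noc2l and Pa2g4, which serve the making of ribosomes, were 1.5-fold, 1.43-fold, 1.44-fold and 1.5-fold higher. Of 42 ribosomal protein genes 6 were higher, among them Rps12 at 1.41-fold and Rpl8 at 1.53-fold, with a median of 0.28. The ribosomal protein median was -0.07 in leukaemia 81, 0.33 in 83 and 0.51 in 85. Of 51 oxidative phosphorylation genes 7 were higher, with Uqcrb of complex III at 1.46-fold and Ndufv2 of complex I at 1.47-fold, and a median of 0.17. Idh2, a mitochondrial isocitrate dehydrogenase, was 1.55-fold higher and with 3 others made up the 4 of 28 TCA and mitochondrial enzyme genes that passed. Of 25 nucleotide and one-carbon enzyme genes 7 were higher, among them Gart and Gmps of purine synthesis at 1.51-fold and 1.53-fold. Without the pairing none of the genes of these 5 lists passed. Without leukaemia 81, 18 ribosomal protein and 14 oxidative phosphorylation genes were higher, without leukaemia 83, 0 and 3, and without leukaemia 85, 1 and 2. MYC target genes numbered 1 without leukaemia 83 and 3 without leukaemia 85.

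In sugar, lipid and haem metabolism few genes passed. Over all genes tested, 5.95% were higher and 2.75% lower. Vegfa, a growth factor gene induced by hypoxia, was 2.08-fold higher and the glycolytic enzyme gene Tpi1 1.48-fold, while the glucose transporter genes Slc2a3 and Slc2a1 and the stress gene Ndrg1 were lower at 1.42-fold, 1.41-fold and 1.39-fold, which is 2 higher and 3 lower of 24 genes. Of 24 cholesterol and fatty acid genes 2 were higher, Fdps at 1.61-fold and Fasn at 1.39-fold. Of 14 haem genes 4 were higher, among them Alas1, the first enzyme of haem synthesis, at 1.47-fold, and Hmox1, which breaks haem down, was 2.08-fold lower (4.82, 5.09 and 4.89 against 6.23, 6.36 and 5.38). Hmox1 kept its call under every setting tried, and the others named here lost theirs without the pairing.

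Among genes of DNA methylation, 5 of 20 were higher and 1 lower, with a median of 0.15. Dnmt1, the maintenance methyltransferase, read 9.41, 9.29 and 8.83 against 8.86, 8.29 and 7.44 and was 1.97-fold higher. Uhrf1, which brings Dnmt1 to newly copied DNA, was 1.80-fold higher, and Mbd1, a reader of methylated DNA, 1.39-fold. Apobec1, a cytidine deaminase gene, was 1.63-fold lower. Dnmt3a (-0.06, adjusted p = 0.797) and Tet2 (0.16, adjusted p = 0.584), picked after their values were seen, did not pass. Of 35 Polycomb and trithorax genes 9 were higher and 1 lower, with a median of 0.20. Suz12 and Ezh2, the core of Polycomb repressive complex 2, were 2.04-fold and 1.75-fold higher, Rbbp7, a histone-binding subunit, 1.80-fold, and Mllt10, a cofactor of DOT1L, 1.36-fold. Kdm6b, which removes the mark that this complex places, was 1.55-fold lower. Suz12 and Apobec1 kept their calls under every setting tried, and the other genes named as changed here lost theirs without the pairing. In that fit 1 Polycomb gene was higher. Without leukaemia 83 or 85, 4 Polycomb genes were higher. Of 20 BCL2 family and apoptosis genes 2 were lower, the survival gene Mcl1 at 1.65-fold and the death effector gene Pmaip1 at 1.32-fold, both without a call when the pairing was left out.

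Markers of other cells that a sort could hold were tested as 7 lists, on which 6 calls were made. Over all genes tested 8.70% were called, and the number tested is given for each list. Of 16 B cell genes 2 were lower, Ighm, the immunoglobulin mu heavy chain, at 2.19-fold and Cd22 at 1.38-fold, and the summed signal of the list was 922 to 1042 in c-kit-positive and 1135 to 1906 in c-kit-negative cells. Ighm was highest in c-kit-negative cells of leukaemia 81 (9.87, against 7.69 to 8.68 on the other 5 arrays), and its other 6 probe sets gave -0.16 to -0.31. The list had 0 called genes without the pairing. None of 20 T and NK cell genes passed, but all 20 differences were negative, with a median of -0.18 and summed signals of 1071 to 1199 and 1250 to 1347. None of 12 megakaryocyte and none of 13 dendritic cell genes passed. Tfrc, the transferrin receptor, was the 1 of 16 erythroid genes higher (1.42-fold). Mcpt8, a basophil protease, was higher at 1.55-fold, and Hdc lower, among 15 mast cell, basophil and eosinophil genes. Vim, vimentin, was the 1 of 15 stroma and endothelial genes lower (1.66-fold), and that list's summed signal was 2356 to 2625 and 2984 to 4262. The list median was -0.05, with 3 of 15 differences positive. Cdh5 had 0.04 and the collagen gene Col1a1 -0.02, and neither passed. The 13 defining markers of these cells that were measured lay between 4.51 and 7.58 on every array, from Klf1 at the bottom to Gp9 at the top, and all but Mcpt8 did not pass. The part of other cells in the decreases given above was not tested.

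**Figure D4:**
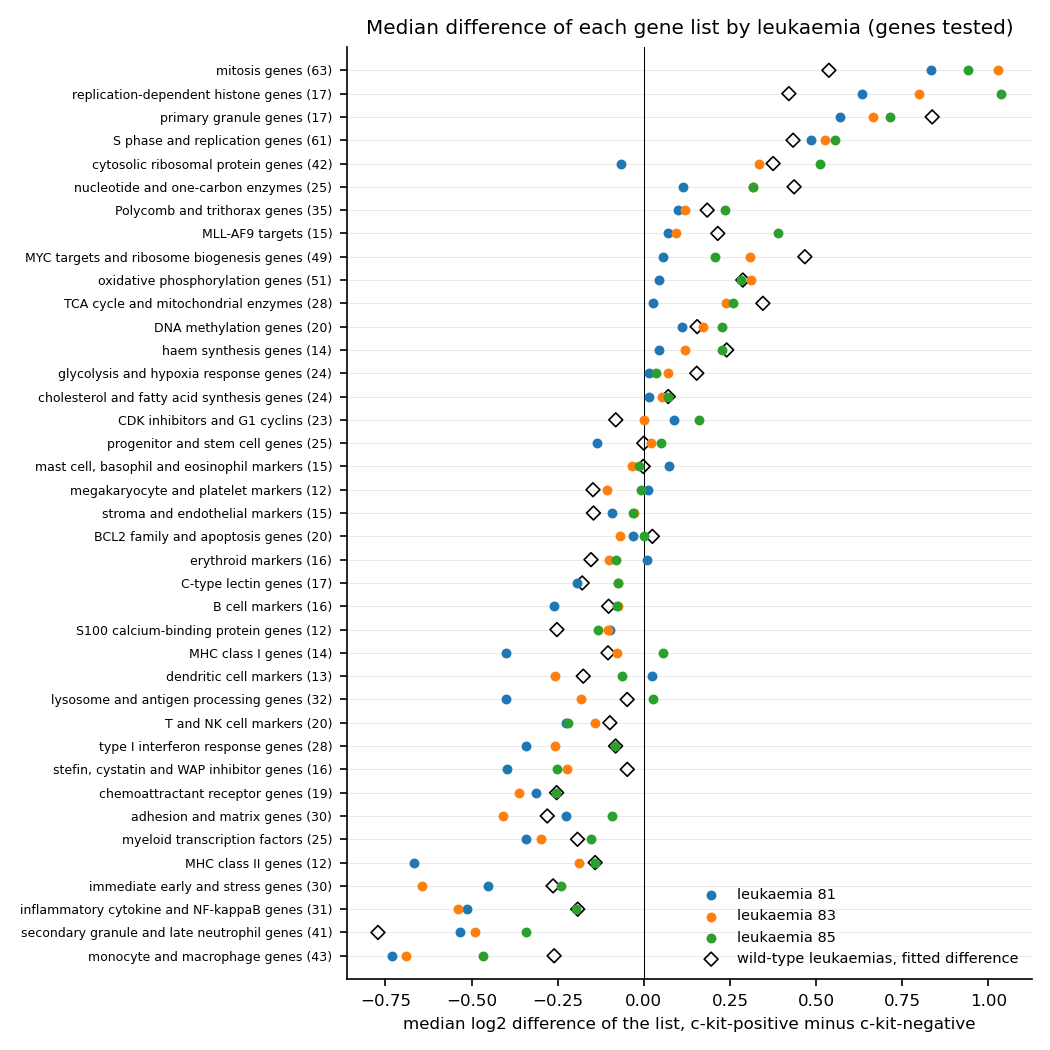
Median log2 difference between c-kit-positive and c-kit-negative cells of each of 39 gene lists (rows, number of genes tested in brackets) in leukaemias 81 (blue), 83 (orange) and 85 (green), with open diamonds for the fitted difference in the wild-type leukaemias. The 3 leukaemias lie close together for S phase genes (0.48 to 0.55) and apart for ribosomal protein genes (-0.07 to 0.51).

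The 3 leukaemias differed from each other in how the fractions parted. Across the 19152 genes the pair differences correlated at Pearson r = 0.55 between leukaemias 81 and 83, 0.43 between 81 and 85 and 0.59 between 83 and 85, a description over genes that share arrays and are not independent. Leukaemia 81 had 88 genes at least 2-fold higher and 209 at least 2-fold lower in its c-kit-positive array, leukaemia 83 had 111 and 146, and leukaemia 85 had 195 and 71. Leukaemia 81 thus had more large decreases and leukaemia 85 more large increases, with 1 pair each and no test. The genes with the widest spread, picked after their values were seen, included Ccl5, a chemokine of lymphocytes, at -2.57 in leukaemia 81 but -0.11 and -0.16 in the others, and Irf8, a monocyte and dendritic cell factor, at -1.74, -0.92 and 0.19. H1f5, a linker histone gene, had 0.20, 1.83 and 2.09 in the same order, and Retnlg -1.70, -3.59 and -3.77.

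The c-kit difference of the Dnmt3b-labelled leukaemias was tested against that of the wild-type leukaemias, and no gene passed. With limma 0 of 19152 genes (0.00%) had an adjusted p under 0.05, the smallest being 0.157, and 1102 (5.75%) had an unadjusted p under 0.05, 546 with a higher and 556 with a lower value in the Dnmt3b-labelled leukaemias. Of the 1666 genes called above, 1632 had the same sign in the wild-type leukaemias. The share with the same sign in both groups was not counted over all genes tested. Over all genes both differences correlated at r = 0.75, with genes not independent of each other. The 6 genes with the smallest p were Cxcr2 (-1.66 against -0.42, adjusted p = 0.157 with limma), Smyd2, a lysine methyltransferase gene (-0.04 against 0.79), Clec4a3 (-1.87 against -0.79), Cxcl2 (-2.13 against -0.99), Id2, an inhibitor of helix-loop-helix factors (-0.49 against -1.68), and Depdc1a (1.43 against 0.58). Adjusted p-values of the last 5 lay between 0.23 and 0.247. Mitosis genes had a median difference of 0.91 in the Dnmt3b-labelled and 0.54 in the wild-type leukaemias, and the Dnmt3b-labelled difference was the larger for 62 of 63, against 9723 of 19152 over all genes. By leukaemia the mitosis medians were 0.83, 1.03 and 0.94 in 81, 83 and 85 and 0.66, 0.67 and 0.32 in 73, 75 and 79, so the groups of 3 did not overlap. Medians of several other lists were separate too, such as the monocyte list (-0.73, -0.69 and -0.47 against -0.31, -0.23 and -0.26). The MYC target list was another (0.06, 0.31 and 0.21 against 0.47, 0.44 and 0.47). Genes of a list are not independent of each other. An unadjusted p under 0.05 was reached by 39 of the 63 mitosis genes, and an adjusted p under 0.05 by none. In the other direction, MYC target and ribosome biogenesis genes had 0.19 against 0.47, and the Dnmt3b-labelled difference was the larger for 3 of 49. S100a8 (-0.17 against -1.23, adjusted p = 0.75) and Camp (0.58 against -0.88, adjusted p = 0.692), picked after their values were seen, also differed in size without passing.

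**Figure D5:**
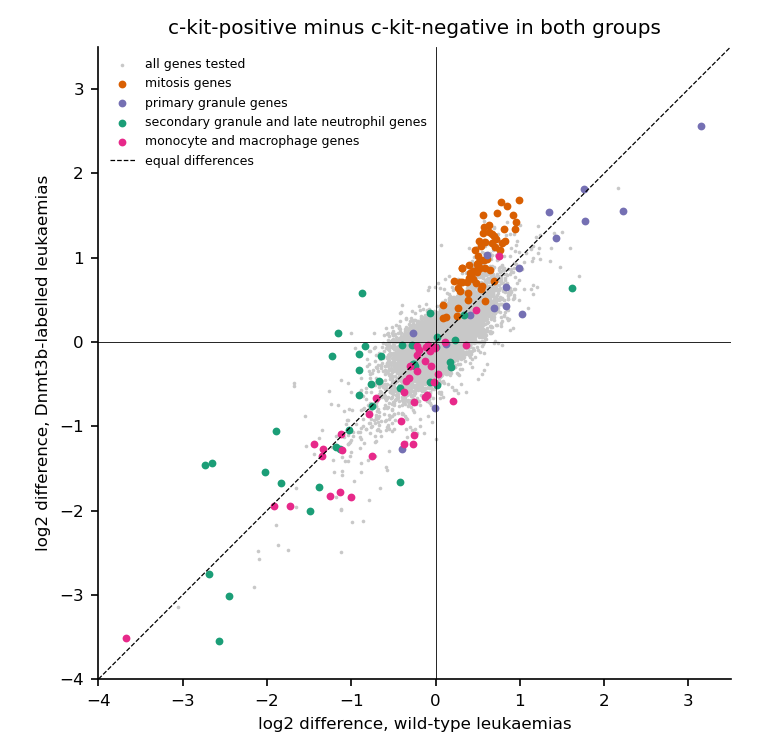
Log2 difference between c-kit-positive and c-kit-negative cells in the wild-type leukaemias (horizontal axis) and in the Dnmt3b-labelled leukaemias (vertical axis) for the 19152 genes tested, with 4 gene lists in colour and a dashed line where both are equal. Of the 63 mitosis genes, 62 lie above the dashed line, and no gene differed between both groups at an adjusted p under 0.05.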

How the data were processed

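Total RNA was isolated with the RNeasy Mini kit, checked on an Agilent chip and labelled with biotin for Affymetrix whole-transcript arrays, per the labels' protocols. The authors deposited log2 values normalized with RMA in Affymetrix Expression Console, per the submitters' processing notes, with versions not given in the sources used here. RMA as usually run brings the arrays to 1 distribution, so a shift of most genes in 1 direction would be reduced. The table held 41345 probe sets, of which 23521 had 1 gene symbol, 1814 had several and 16010 were not listed in the annotation. Symbols were updated by Entrez number to RefSeq for 23328 probe sets. The probe set with the highest mean stood for each of 22180 genes, and 19152 genes above the 25th percentile (log2 4.61) on at least 3 of 12 arrays were tested.

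limma 3.58.1 in R 4.3.3 was fitted to all 12 arrays, with the leukaemia number as a block and a c-kit effect for each genotype. Tests were two-sided with Benjamini-Hochberg adjustment at 0.05 and no minimum fold, and "higher" and "lower" mean past that threshold. The pairing came from the numbers in the titles, and deviations of arrays with the same number correlated at 0.28 to 0.60 in every pair. The fitting step was tested on simulated data. Named genes were Kit, Cdk1, Fn1, Mmp8 and Dnmt3b, in each direction at most 14 genes with the largest differences and separate groups, up to 5 genes per list with the smallest p and members against their list, and 6 genes for the difference from wild type. The members and gene lists were chosen with earlier results of these data known. Summed signals are sums of linear values over a list. The alternatives were other blocks, scalings, filters, probe set rules and moderation, and leaving out each leukaemia. The labels do not say that numbers are separate mice, and the number of arrays limits the precision.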

Additional observations from a re-analysis of the deposited data

Results flagged for a closer look

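In 3 marker genes of other cell types the c-kit difference had opposite signs in all 3 Dnmt3b-labelled and all 3 wild-type pairs. For Cd79a, a chain of the B cell receptor complex, it was -0.32 in the Dnmt3b-labelled and 0.13 in the wild-type leukaemias, a difference of -0.45 (adjusted p = 0.809 with limma). For Il2rb, an interleukin 2 receptor chain of T and NK cells, it was -0.59 and 0.04, a difference of -0.64 (adjusted p = 0.819). For Col3a1, a collagen of stroma, it was 0.14 and -0.21, a difference of 0.35 (adjusted p = 0.787). None of these differences passed the adjusted threshold. The 3 genes were picked for their split signs, so the split is not a test. Their lists held 16 B cell, 20 T and NK cell, and 15 stroma and endothelial genes tested.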

How the results depend on the processing

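Without the pairing (no replicate block), 360 genes passed in place of 1666, 216 higher and 144 lower, all of them among the 1666. Leaving out each of the 6 leukaemias in turn gave 745 to 1683 genes, 504 to 1129 higher and 241 to 554 lower, with the lowest counts without leukaemia 83, and 574 genes were called in every such fit. The difference from wild type was called for 0 to 2 genes in these fits. The other alternatives stayed within 1.5 times of the reported counts. Of 159 called genes among the 209 named, 63 kept their calls under every setting, 34 lost them only without the pairing, and 0 reversed direction. Calls were lost by 94 without the pairing, 26 with a random block, 11 with 6 arrays alone, 44 without leukaemia 83, 33 without 85 and 20 without 81. With 3 pairs the precision rests on few arrays, and values near the low end of the scale, such as those of Ccl6 and Clec4a1, leave little room to fall.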

Other observations

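Outside the gene lists, 105 genes differed at least 2-fold, and those given here were chosen after their values were seen. Pirb, a paired inhibitory receptor, was 3.33-fold lower, Il10ra, the interleukin 10 receptor chain, 2.70-fold, and Il17ra, an interleukin 17 receptor chain, 2.30-fold, with Il17ra at 7.43, 7.38 and 7.51 against 8.65, 8.62 and 8.66. The metalloprotease gene Adam8 was 3.97-fold lower, the endosomal RNA sensor gene Tlr13 3.88-fold, Samhd1, which degrades deoxynucleotides, 3.13-fold, Slc11a1, a metal transporter of phagosomes, 2.40-fold, and Plaur, the urokinase receptor, 2.22-fold.

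Among the higher genes, the condensin genes Ncapd2, Ncapd3 and Smc2 were 2.16-fold, 2.09-fold and 2.07-fold higher, and the cohesin gene Smc1a was 2.08-fold higher. Genes of other kinds were higher by similar amounts, such as Olr1, a receptor for oxidised lipoprotein, at 2.21-fold, and Ncam1, an adhesion molecule, at 2.22-fold. Stil, a centriole duplication factor, was 2.15-fold higher, Cks2, a subunit of cyclin-dependent kinases, 2.04-fold, and Tfdp1, the partner of E2F factors, 2.04-fold. Besides Olr1 (adjusted p = 0.00418) the adjusted p-values of the genes in both paragraphs lay at or under 0.00121 with limma, and Olr1 and Smc1a lost their calls when the pairing was left out (adjusted p = 0.366 and 0.0566).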
